A study of Homo sapiens with 6 samples.

Results

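TXNIP, the thioredoxin-interacting protein, was examined together with its 4 expressed arrestin-domain relatives (ARRDC1, ARRDC2, ARRDC3 and ARRDC4), with the thioredoxins TXN and TXN2, and with MLXIP (MondoA), a glucose-sensing transcription factor. These 8 genes were taken by symbol from a table of 25343 gene rows, and all 8 passed the filter on low counts that left 15499 genes for testing. They were chosen by their measured difference between panobinostat and vehicle in these same libraries, together with their known roles. Their levels and differences are therefore given as a description with no test. A375, an established human melanoma cell line (parental cells), received 50 nM panobinostat, an inhibitor of histone deacetylases, for 24 h, and control cells received the matching volume of PBS (vehicle). RNA of 3 libraries per group was sequenced, and the labels name no further genotype, agent or clone. Nothing says whether the libraries came from separate cultures, so a p-value reflects the variation among these 6 libraries alone, and that may be technical.

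Thioredoxins are small oxidoreductases that keep protein thiols reduced, TXN in the cytosol and nucleus and TXN2 in mitochondria. TXNIP is an alpha-arrestin that binds reduced thioredoxin and blocks it, and it also promotes the endocytosis of glucose transporters, so that it is widely described as a brake on glucose uptake and growth in tumour cells. Its relatives ARRDC1 to ARRDC4 share the arrestin fold and recruit ubiquitin ligases of the NEDD4 family to membrane proteins. MLXIP works as a dimer with MLX, moves to the nucleus when phosphorylated glucose accumulates, and activates TXNIP and ARRDC4, its best known targets, through paired E-boxes in their promoters. TXNIP is also among the genes most often reported to respond to histone deacetylase inhibitors.

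The libraries held 32293283 to 38944399 counts, and 3 counts in a library corresponded to 0.0774 to 0.0928 CPM (counts scaled to a common library size with edgeR's TMM method). The labelled cell type was checked against its markers. Of 10 melanocyte-lineage genes, SOX10 stood at 813 CPM in vehicle, while MLANA and TYR had 0 counts in all 6 libraries. The summed level of the 10 was 1854 to 1992 CPM in vehicle and 728 to 800 CPM with panobinostat. Most of that sum was SOX10 and ERBB3, which were lower with panobinostat (368 CPM, and 120 against 1020 CPM), as were MITF and PAX3. PMEL (0.628 to 194 CPM), TFAP2A (20.0 to 35.8 CPM) and, at trace levels, DCT and TYRP1 were higher. Markers of other cell types moved with the treatment. The sum of 5 leukocyte markers was 35.2 to 40.0 CPM in vehicle and 88.4 to 91.3 CPM with panobinostat, nearly all of it CD68, with PTPRC at 0 in vehicle and at most 3 counts with panobinostat. The sum of 3 fibroblast markers was 11.9 to 12.6 in vehicle and at least 66.5 CPM with panobinostat, where COL1A1 (1.001 to 56.1 CPM) and DCN (0.975 to 5.54 CPM) were higher and PDGFRA, most of the vehicle sum, was lower (10.3 to 5.95 CPM). The sum of 3 epithelial markers was 0.0777 to 0.145 CPM in vehicle and 0.681 to 0.994 CPM with panobinostat. The sum of 3 endothelial markers was 1.497 to 1.84 and 4.86 to 5.52 CPM, with PECAM1 at 0.0981 and 2.91 CPM. Neither pair of ranges overlapped. The part of these markers in the values below was not tested. In bulk RNA a change in every cell and a change in the share of cells that express a gene cannot be told apart.

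The promoters of the 3 genes with higher levels under panobinostat, TXNIP, ARRDC4 and ARRDC2, are shown because TXNIP and ARRDC4 are textbook targets of MLXIP and had the largest differences of the 8. Each line gives the 250 bases before the first annotated start, 5′ to 3′ on the gene's strand, from RefSeq (GRCh38.p14). Capitals mark 4 motifs searched on either strand: the E-box CACGTG, the paired E-box CACGNGNNNNNCNCGNG, CCAAT (read as ATTGG on the other strand), which the factor NF-Y binds, and the GC box GGGCGG (or CCGCCC).
TXNIP, chr1:145996580-145996829, minus strand: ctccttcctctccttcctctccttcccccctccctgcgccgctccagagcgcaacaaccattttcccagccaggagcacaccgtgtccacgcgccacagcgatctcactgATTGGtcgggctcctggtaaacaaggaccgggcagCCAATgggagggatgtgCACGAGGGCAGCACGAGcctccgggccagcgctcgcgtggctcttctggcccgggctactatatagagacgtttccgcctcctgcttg
ARRDC4, chr15:97960453-97960702, plus strand: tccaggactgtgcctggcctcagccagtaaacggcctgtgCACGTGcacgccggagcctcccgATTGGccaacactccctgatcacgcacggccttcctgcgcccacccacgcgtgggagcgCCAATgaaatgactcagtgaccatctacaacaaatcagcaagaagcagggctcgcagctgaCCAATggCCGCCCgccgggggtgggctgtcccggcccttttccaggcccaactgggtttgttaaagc
ARRDC2, chr19:18000874-18001123, plus strand: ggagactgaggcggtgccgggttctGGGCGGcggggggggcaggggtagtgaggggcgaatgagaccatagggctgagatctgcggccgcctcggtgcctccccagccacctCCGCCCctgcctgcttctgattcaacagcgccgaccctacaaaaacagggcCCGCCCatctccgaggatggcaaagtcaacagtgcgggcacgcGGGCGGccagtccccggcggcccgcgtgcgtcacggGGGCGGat

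The TXNIP promoter held the paired E-box once, as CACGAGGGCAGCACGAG, between 88 and 72 bases before the start, with 2 CCAAT matches 140 and 105 bases before it. The ARRDC4 promoter held a full E-box 210 bases before the start, 3 CCAAT matches and 1 GC box, and no match to the paired motif as spelled here. The ARRDC2 promoter held 5 GC boxes in these 250 bases and neither kind of E-box. Promoter windows of 300 bases, which add the 50 bases after the start, were found for 7 of the 8 genes (10 windows, as some genes have a further start), and TXN2 had none. Among the 10 windows, TXNIP's held the only paired E-box and ARRDC4's the only E-box. CCAAT also occurred at the first start of ARRDC3, ARRDC1 and MLXIP, and GC boxes at those of ARRDC3, ARRDC1, MLXIP and TXN. Over all 35116 windows, 0.501% held the paired E-box, 7.26% the E-box, 34.6% CCAAT and 45.0% the GC box. A paired E-box can contain an E-box, and a match is a description of letters, not of binding.

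**Figure D1:**
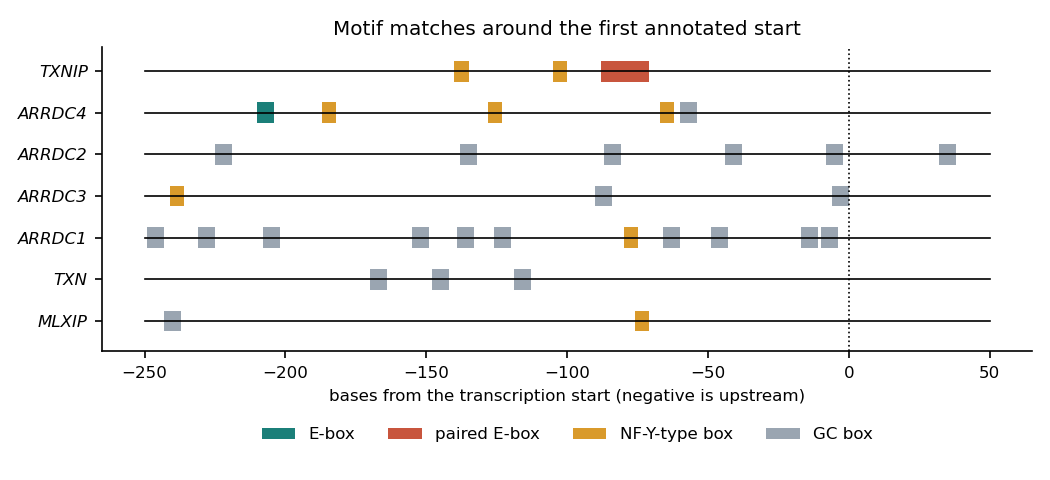
Motif matches from 250 bases before to 50 bases after the first annotated start of 7 genes (x axis, bases from the start). Coloured blocks are matches on either strand, with CCAAT labelled as the NF-Y-type box. TXNIP carries the paired E-box at 88 to 72 bases before its start and ARRDC4 the single E-box at 210.

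Levels of the 8 genes are given in CPM for vehicle replicates 1, 2 and 3 and then for panobinostat replicates 1, 2 and 3. Means are ± SD with n = 3 libraries, and log2 differences (panobinostat minus vehicle) are ± SE from edgeR's quasi-likelihood fit over all 15499 genes. Vehicle and panobinostat ranges were separate for 6 of the 8 genes, 3 higher and 3 lower with panobinostat. They were separate for 83.4% of all genes tested, 42.0% on the higher side and 41.5% on the lower side, and since this contrast chose the 8 genes nothing is read from their count.

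TXNIP, the inhibitor of thioredoxin, was at 212, 217 and 234 CPM in vehicle and at 1091, 1101 and 1056 CPM with panobinostat. Each panobinostat library lay far above each vehicle library, and the means were 221 ± 11.5 and 1083 ± 23.2 CPM. The fitted log2 difference was 2.29 ± 0.04, a 4.90-fold higher level, and 91.7% of genes tested had a smaller log2 difference. The gene took 0.0212% to 0.0232% of a vehicle library's counts and 0.106% to 0.111% of a panobinostat library's.

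TXN, the cytosolic thioredoxin that TXNIP binds, was at 255, 253 and 255 CPM in vehicle and at 168, 172 and 171 CPM with panobinostat. The groups were far apart beside a spread of 1.41 CPM (SD) in vehicle and 1.97 CPM with panobinostat. The log2 difference was -0.58 ± 0.03, or 0.671 times the vehicle level. The reference annotation names 7 processed pseudogenes of TXN, which were not analysed here, so reads that such copies could take are uncertain.

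TXN2, the mitochondrial thioredoxin, was at 59.9, 59.2 and 60.2 CPM in vehicle and at 37.5, 38.8 and 42.6 CPM with panobinostat. Panobinostat replicate 3 was the highest of its group and still below every vehicle library. The log2 difference of -0.59 ± 0.05 (0.663 times the vehicle level) was within an SE of that of TXN.

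ARRDC4, the arrestin-domain gene that shares the glucose response with TXNIP, was at 16.8, 19.5 and 20.0 CPM in vehicle and at 108, 109 and 102 CPM with panobinostat. The groups did not overlap, and the means were 18.8 ± 1.76 and 106 ± 3.81 CPM. Its log2 difference of 2.50 ± 0.06, or 5.67-fold, was the largest of the 8 genes in the reported fit, and 92.6% of genes tested had a smaller one.

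ARRDC2, an arrestin-domain adaptor of less studied function, was at 21.3, 21.2 and 17.8 CPM in vehicle and at 33.7, 34.7 and 33.2 CPM with panobinostat. Vehicle replicate 3 was the lowest of its group, and every panobinostat library was higher than every vehicle library. The log2 difference was 0.75 ± 0.07, a 1.69-fold higher level.

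ARRDC3, an adaptor for the ubiquitination of membrane receptors was at 90.3, 99.2 and 110 CPM in vehicle and at 100, 95.5 and 88.2 CPM with panobinostat. The groups overlapped, with means of 99.9 ± 9.97 and 94.7 ± 6.13 CPM. The log2 difference of -0.08 ± 0.07 was close to its SE, and it turned to 0.04 under upper quartile scaling and to 0.02 under a filter that asked for 5 CPM in 3 libraries. ARRDC3-AS1, a noncoding gene on the opposite strand that overlaps ARRDC3, had 22 to 33 counts in the vehicle libraries and 40 to 48 in the panobinostat libraries, against at least 2850 for ARRDC3.

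ARRDC1, which drives budding of vesicles from the plasma membrane, was at 11.8, 10.5 and 10.1 CPM in vehicle and at 9.78, 10.5 and 9.22 CPM with panobinostat. The groups overlapped, and the log2 difference was -0.13 ± 0.08. In the reference annotation a processed transcript on the same strand, AL590627.2, overlaps ARRDC1 over 9617 bases. It has no row in the counts, so reads that it could share with ARRDC1 are uncertain. ARRDC5, the remaining gene of the family, had 0 counts in all 6 libraries, which allows a level of up to 0.0774 to 0.0928 CPM by counting error.

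MLXIP, the glucose-sensing activator of TXNIP and ARRDC4, was at 75.5, 71.5 and 67.6 CPM in vehicle and at 63.9, 67.2 and 65.8 CPM with panobinostat. The lowest vehicle library and the highest panobinostat library were at 67.6 and 67.2 CPM, so the ranges were separate by a narrow margin. The log2 difference was -0.12 ± 0.05, and with upper quartile scaling it was -0.0029.

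**Figure D2:**
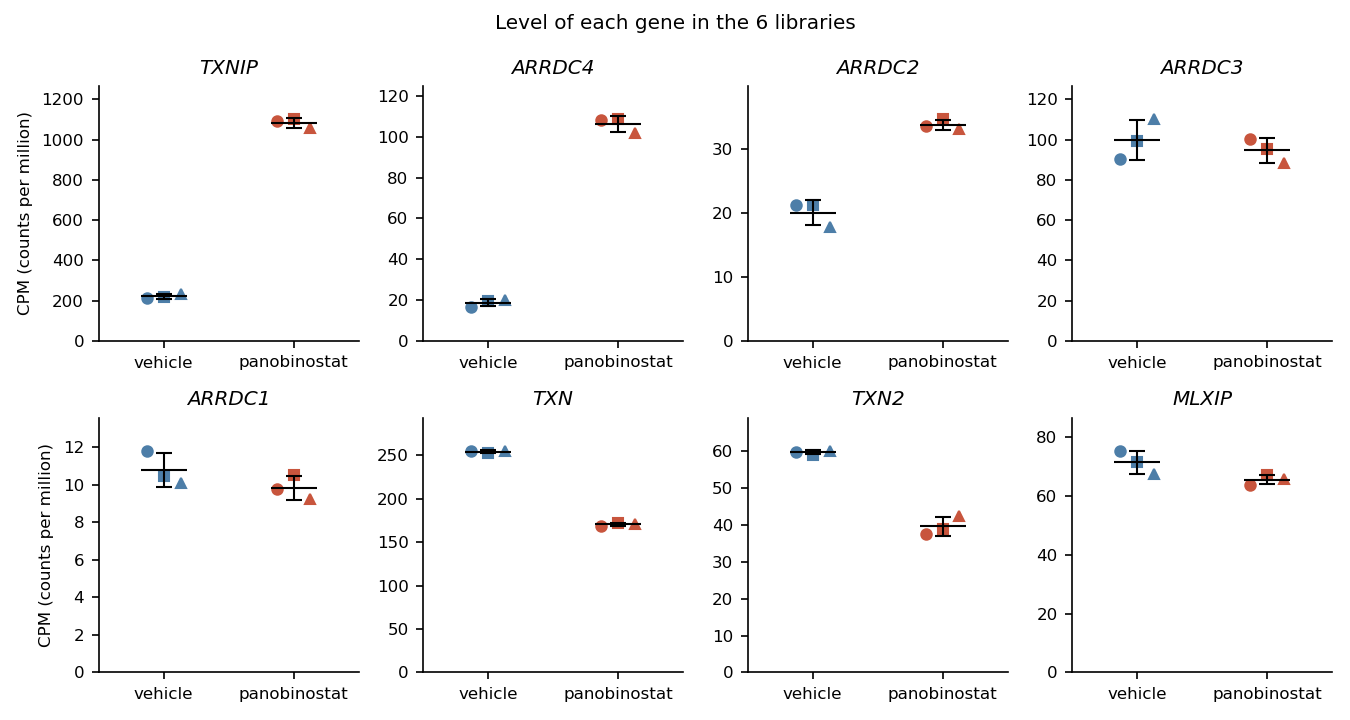
CPM of each of the 8 genes (y axes, from 0) in vehicle (blue) and panobinostat (red) libraries, with circles, squares and triangles for replicates 1, 2 and 3 and black marks for mean ± SD (n = 3). TXNIP and ARRDC4 separate widely, TXN and TXN2 lie lower with panobinostat, and ARRDC3 and ARRDC1 overlap.

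Ratios of counts within a library need no scaling between libraries. The ratio of TXNIP to TXN counts was 0.832, 0.859 and 0.916 in the vehicle libraries and 6.48, 6.39 and 6.17 in the panobinostat libraries. The mean ratio went from 0.869 ± 0.0432 to 6.35 ± 0.159, a 7.30-fold difference that was 7.15-fold to 7.51-fold when any library was left out. The ratio of TXN to TXN2 was 4.24 to 4.27 in vehicle and 4.02 to 4.50 with panobinostat. The vehicle values lay inside the panobinostat range, so the ratio of the thioredoxins did not differ beyond the spread of these libraries. The ratio of ARRDC4 to ARRDC3 was 0.182 to 0.197 in vehicle and 1.08 to 1.16 with panobinostat. The ratio of TXNIP to ARRDC4 was 11.1 to 12.7 in vehicle and 10.1 to 10.4 with panobinostat, with ranges that did not overlap.

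**Figure D3:**
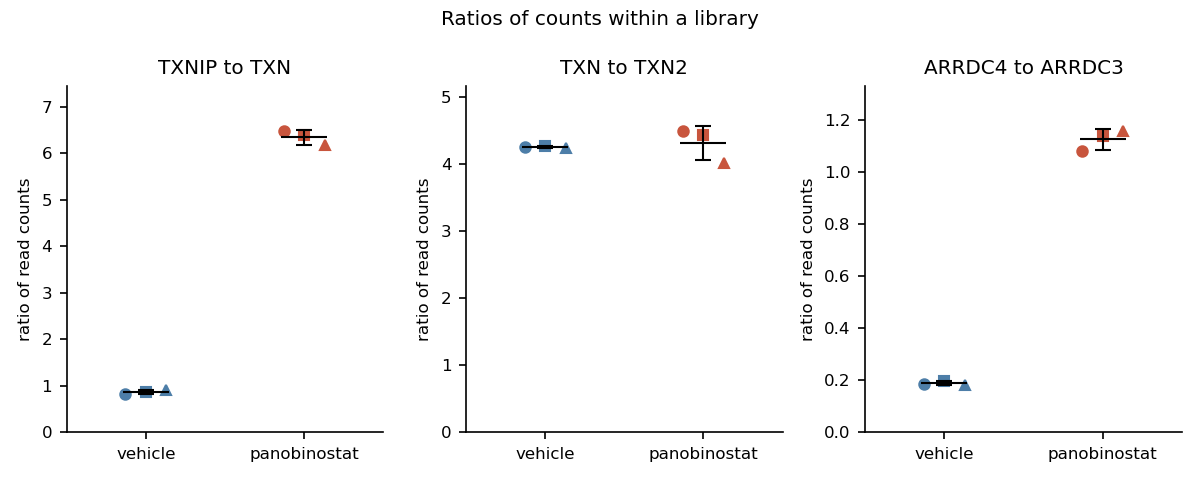
Ratio of read counts within each library (y axes, from 0) for 3 pairs of genes, with blue vehicle and red panobinostat libraries and black marks for mean ± SD (n = 3). TXNIP to TXN goes from below 1 to above 6, while TXN to TXN2 stays near 4.3 in both groups.

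Levels of different genes were compared per kb of the principal transcript in the reference annotation. In vehicle, TXN was the most abundant of the 8 per length at 293 ± 1.62 CPM per kb, ahead of TXNIP at 75.5 ± 3.93, TXN2 at 34.4 ± 0.303 and ARRDC3 at 23.8 ± 2.38. MLXIP (8.49 ± 0.469 CPM per kb), ARRDC2 (8.03 ± 0.796) and ARRDC1 (6.80 ± 0.568) followed, and neighbours among these 3 did not differ beyond their spread. ARRDC4 was the lowest at 4.61 ± 0.432 CPM per kb. With panobinostat TXNIP was the most abundant at 370 ± 7.92 CPM per kb, ahead of TXN at 196 ± 2.27, and this exchange of the top places also held per kb of merged exons (60.9 against 223 in vehicle and 299 against 149 with panobinostat). ARRDC4 then stood at 26.1 ± 0.936 CPM per kb, above TXN2 (22.8 ± 1.53) and ARRDC3 (22.6 ± 1.46), which did not differ beyond their spread. The order of the 4 lowest genes in vehicle depended on the length used, and per kb of merged exons ARRDC1 was the lowest at 2.82. Of the summed per-length level of TXNIP and ARRDC1 to ARRDC4, TXNIP made up 63.5% ± 0.576 in vehicle and 84.4% ± 0.288 with panobinostat, and ARRDC3 made up 20.0% ± 1.11 and 5.15% ± 0.237.

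**Figure D4:**
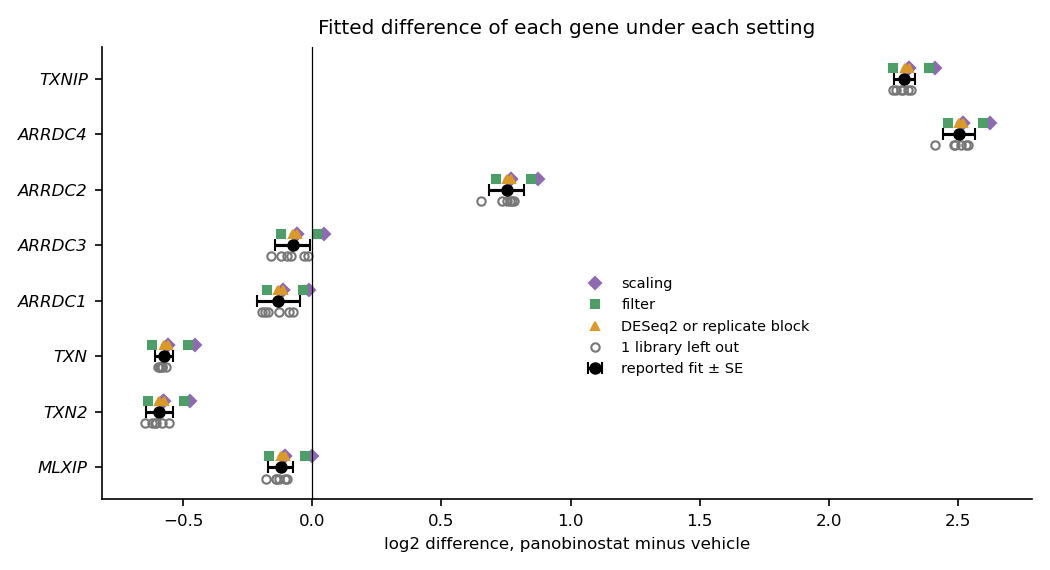
Fitted log2 difference of each of the 8 genes (x axis, panobinostat minus vehicle) in the reported fit (black, ± SE) and under other scalings, filters, DESeq2, a replicate block and with each library left out. TXNIP, ARRDC4 and ARRDC2 stay above 0 and TXN and TXN2 below 0 in each setting, while ARRDC3 lies on both sides of 0.

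Genes that work with these 8 were counted in lists, and single genes in them were tested by edgeR with Benjamini-Hochberg adjustment over all 15499 genes. Over all genes tested, 82.8% passed at an adjusted p under 0.05, 41.8% as rises and 41.0% as falls, so that a list with shares near these shows nothing of its own, and the median log2 difference of all genes was 0.01. The lists describe the surroundings of the 8 genes and were not tested as sets.

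Of 25 genes of the thioredoxin system and of related redox enzymes, such as the glutaredoxins and PRDX6, 13 rose and 7 fell (median log2 difference 0.17). TXN and TXN2 were not among the 25. The cytosolic reductase TXNRD1, which regenerates TXN, rose from 289 ± 9.18 to 819 ± 9.10 CPM (2.83-fold, edgeR adjusted p = 2.97e-16). Its mitochondrial counterpart TXNRD2, which serves TXN2, fell from 17.3 ± 0.504 to 5.60 ± 0.552 CPM (log2 difference -1.63 ± 0.08, edgeR adjusted p = 4.83e-12). The peroxiredoxin PRDX1, which passes electrons from TXN to peroxides, rose 1.76-fold to 798 ± 16.0 CPM. Sulfiredoxin (SRXN1), which repairs overoxidised peroxiredoxins, rose 2.18-fold. PRDX6 fell from 364 ± 8.94 to 193 ± 3.97 CPM, and the methionine sulfoxide reductase MSRA from 9.92 ± 0.323 to 2.71 ± 0.500 CPM. The other listed methionine sulfoxide reductases, MSRB1, MSRB2 and MSRB3, rose 1.64-fold, 1.54-fold and 1.86-fold. The remaining thioredoxin reductase, TXNRD3, fell from 12.1 ± 0.415 to 4.97 ± 0.463 CPM (log2 difference -1.28 ± 0.09, edgeR adjusted p = 3.04e-10). Of the 3 thioredoxin reductases 1 therefore rose and 2 fell, and TXN and TXN2 were both lower.

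MLX, the obligate partner of MLXIP, was at 115 ± 0.510 and 113 ± 4.50 CPM and did not pass (log2 difference -0.04 ± 0.04, edgeR adjusted p = 0.404). MLXIPL (ChREBP), the other glucose-sensing partner of MLX, rose from 0.316 ± 0.101 to 4.35 ± 0.0989 CPM (log2 difference 3.78 ± 0.19, edgeR adjusted p = 5.15e-12). Of 9 listed genes of the MLX and MAX network, a list without the MYC genes, 5 rose and 2 fell (median 0.21). The other rises were those of MAX (1.32-fold), the common dimer partner, and of the repressors MNT (1.16-fold), MXD4 (1.35-fold) and MXI1 (1.17-fold). The falls were those of MGA (-0.27 ± 0.04 on the log2 scale) and MXD3 (-0.98 ± 0.12), and MXD1 stood at 11.8 ± 1.45 and 13.3 ± 0.688 CPM and did not pass.

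Glucose-responsive genes were a list mainly of reported targets of MLXIP or MLXIPL other than TXNIP and ARRDC4. They showed 6 rises and 9 falls among 16 tested (median -0.18). G6PC3, a relative of the reported target G6PC, was also in the list and among the falls. PFKFB3, which makes the activator of phosphofructokinase, fell from 196 ± 7.03 to 68.4 ± 1.84 CPM (log2 difference -1.52 ± 0.04, edgeR adjusted p = 1.87e-15). HK2, the hexokinase that traps glucose, fell from 194 ± 12.2 to 167 ± 4.15 CPM (edgeR adjusted p = 0.000221). ACLY, which makes cytosolic acetyl-CoA, and MID1IP1, a promoter of lipid synthesis, fell as well, with log2 differences of -0.44 ± 0.04 and -0.77 ± 0.06. KLF10, a transcription factor, rose 1.59-fold, the desaturase SCD from 366 ± 8.26 to 550 ± 9.67 CPM and the clock-linked repressor BHLHE40 1.49-fold. PKLR and FGF21 had 5 counts or fewer in either group's 3 libraries together and were not tested.

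Glucose transporters and hexokinases other than HK2, among them cargo of TXNIP and ARRDC4, showed 8 rises and 1 fall among 11 tested (median 0.47). HK2, which fell, was counted with the glucose-responsive genes. The ubiquitous transporter SLC2A1 (GLUT1) rose from 139 ± 6.83 to 170 ± 2.60 CPM (log2 difference 0.30 ± 0.04, edgeR adjusted p = 3.79e-06). SLC2A3 (GLUT3) rose from 98.7 ± 6.59 to 238 ± 4.66 CPM (1.27 ± 0.05), and its near-identical copy SLC2A14 makes reads of both uncertain. The insulin-responsive SLC2A4 (GLUT4) rose from 0.236 ± 0.139 to 6.61 ± 0.0490 CPM and SLC2A12 from 1.18 ± 0.0718 to 26.9 ± 1.21 CPM, both from low levels. SLC2A10 fell from 3.07 ± 0.157 to 1.56 ± 0.132 CPM.

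NEDD4-family ligases and their adaptors, the partners that alpha-arrestins recruit, showed 9 rises and 3 falls among 12 (median 0.44). NEDD4L rose 1.89-fold to 265 ± 2.18 CPM (edgeR adjusted p = 1.72e-13), SMURF2 1.75-fold and ITCH, a ligase reported to degrade TXNIP, 1.37-fold to 244 ± 6.78 CPM (edgeR adjusted p = 1e-08). WWP1 and SMURF1 rose 1.21-fold and 1.18-fold. HECW1 rose 6.40-fold and HECW2 2.96-fold, from 1.56 and 1.43 CPM in vehicle. The adaptors NDFIP1 and NDFIP2 rose 1.62-fold and 1.34-fold. WWP2 fell from 169 ± 3.62 to 75.4 ± 1.80 CPM (log2 difference -1.17 ± 0.04), and NEDD4 and TSG101, the latter the budding factor that ARRDC1 recruits, fell by 0.46 ± 0.05 and 0.41 ± 0.05 on the log2 scale.

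Other genes with an arrestin or related fold showed 5 rises and 1 fall among 6 tested (median 0.45). ARRB1 and ARRB2, the beta-arrestins that desensitise receptors, rose from 18.7 ± 0.467 to 33.6 ± 1.60 CPM and from 37.3 ± 1.77 to 62.2 ± 1.55 CPM. The sorting subunit VPS26A rose 1.37-fold, its relative VPS26C (listed as DSCR3) 1.36-fold and RGP1 1.16-fold, whereas VPS26B fell from 83.8 ± 3.30 to 56.9 ± 2.12 CPM. The visual arrestins SAG and ARR3 had 0 counts in vehicle and were not tested.

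AMPK, the energy-sensing kinase that marks TXNIP for degradation, had 5 rises and 4 falls among 9 tested genes of its subunits and upstream kinase complex (median 0.73). The catalytic subunit PRKAA2 rose 2.53-fold to 50.6 ± 6.08 CPM, PRKAG2 2.25-fold and PRKAB2 1.66-fold, and the upstream kinase STK11 (LKB1) and its scaffold CAB39 rose 1.80-fold and 1.72-fold. STRADA and PRKAB1 fell by 0.66 ± 0.07 and 0.32 ± 0.06 on the log2 scale. The falls of PRKAA1 (-0.25 ± 0.10, edgeR adjusted p = 0.0459) and PRKAG1 (-0.15 ± 0.04) were lost under upper quartile scaling (-0.13 and -0.03) and under the 5 CPM filter, and that of PRKAA1 also with RLE scaling, library size scaling, no filter, and without vehicle replicate 1 (-0.31) or vehicle replicate 3 (-0.17).

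Among 5 tested genes for reported partners of TXN or TXNIP or for the inflammasome and its cytokine IL1B, 2 rose and 2 fell. MAP3K5 (ASK1), the stress kinase that TXN restrains, rose from 8.78 ± 0.462 to 22.3 ± 0.604 CPM (log2 difference 1.34 ± 0.07, edgeR adjusted p = 6.72e-12). IL1B, the cytokine matured by the inflammasome, rose from 0.663 ± 0.177 to 4.46 ± 0.564 CPM. APEX1, a redox factor that TXN reduces, fell from 143 ± 2.55 to 88.2 ± 2.68 CPM, and the inflammasome sensor NLRP3 fell from 0.623 ± 0.111 to 0.322 ± 0.0407 CPM. DDIT4 (REDD1) was at 158 ± 7.62 and 167 ± 10.7 CPM and did not pass. The inflammasome adaptor PYCARD had 0 counts in all 6 libraries, and CASP1 had 26 counts over the vehicle libraries and 2 over the panobinostat libraries and was not tested.

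**Figure D5:**
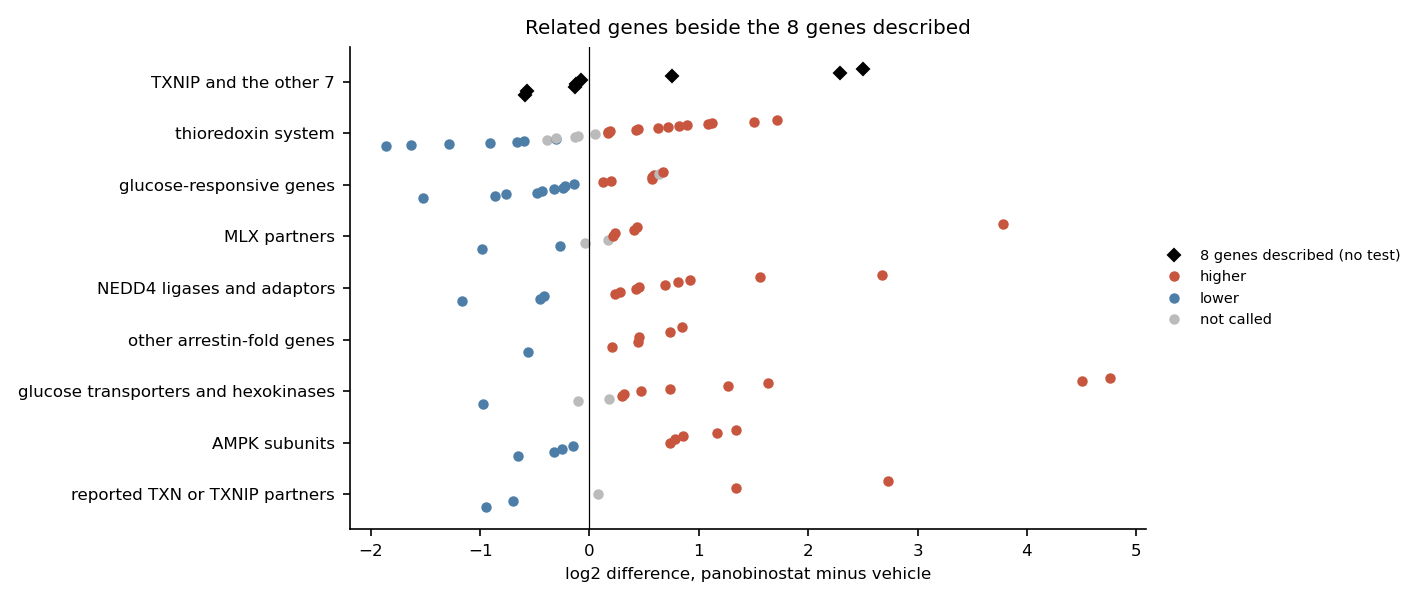
Log2 difference (x axis, panobinostat minus vehicle) of the 8 genes (black, no test) and of each tested gene in 8 lists of related genes, coloured by edgeR's call at an adjusted p under 0.05. Red points are rises, blue falls and grey genes that did not pass, with MLXIPL, SLC2A12 and SLC2A4 farthest to the right.

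The genes with the profile most like that of TXNIP were found by the root-mean-square difference of log2 CPM over the 6 libraries, each gene centred on its own mean. A prior count of 2 was added for log2 CPM, which pulls in the differences of genes with few counts. The nearest genes were ATP1B1, a sodium pump subunit (0.03), RGS2, a regulator of G-protein signalling (0.03), CCDC69 (0.04), WDR96 (0.05) and SLC46A3, a lysosomal transporter (0.06). ATP1B1 went from 98.9 ± 3.60 to 494 ± 24.2 CPM. For ARRDC4 the nearest were PDE4D, a cyclic AMP phosphodiesterase (0.05), AK9 (0.06), SNAP25, a protein of vesicle fusion (0.06), ERV3-1 (0.07) and KCNJ11, a potassium channel subunit (0.07). KCNJ11 was close to the counting floor in vehicle (0.135 ± 0.0276 CPM), so its place depends on the prior count. Its fitted log2 difference was 2.82 ± 0.30, against 2.50 ± 0.06 for ARRDC4 and 2.29 ± 0.04 for TXNIP. TXNIP and ARRDC4 differed from each other by 0.12 on the root-mean-square measure. With 6 libraries in 2 groups the measure rests mainly on the size of the difference between the groups.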

How the data were processed

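The authors deposited whole-number read counts per gene symbol with no normalization. STAR appears only in the name of that deposited count table, with no version. For the build, gene models and strandedness, the sources used here give nothing. Reads of overlapping genes on opposite strands therefore cannot be told apart. Per the series' design text, RNA was extracted with a kit and treated with DNase. Columns were matched to samples by title, and the labelled dose gave the group. Left out were 92 spike-in rows with 0 counts. Another 28 rows with symbols turned into dates stayed in the fit unnamed.

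Genes passing filterByExpr entered edgeR's robust quasi-likelihood test between the groups after TMM scaling, with Benjamini-Hochberg adjustment and calls under 0.05. The SE is the fitted log2 difference over the root of F. The common biological coefficient of variation was 0.0449. Replicates differed beyond counting noise in every pair. The steps were tested on simulated counts in which few genes differed, with rises and falls in equal number. That setting does not cover these data, where most genes passed. Members and lists were chosen with earlier results of these data known. Genes named were the 8 members, all tested genes of lists of 12 or fewer, otherwise the 3 called genes with the smallest adjusted p per direction plus TXNRD1, TXNRD2, SLC2A1, HK2 and PFKFB3, and the 5 genes most like TXNIP and ARRDC4. PKLR, FGF21, G6PC3, ARRDC5, SAG, ARR3, PYCARD, CASP1, SLC2A14, TXNRD3, MSRB1, MSRB2, MSRB3 and ARRDC3-AS1 were named after their values were seen. Lengths came from GENCODE release 29 (longest principal transcript, or merged exons), and promoters from RefSeq. Alternatives were other scalings, filters, DESeq2, a replicate block and leaving out each library. The floors given for 0 counts cover counting error only. Versions were Python 3.11.15, DESeq2 1.42.0, edgeR 4.0.16 and R 4.3.3.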

Additional observations from a re-analysis of the deposited data

How the results depend on the processing

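Over 13 alternatives the log2 differences of the 8 genes kept their direction in 102 of 104 values, the exceptions being ARRDC3 under upper quartile scaling (0.044) and under the 5 CPM filter (0.018). Upper quartile scaling raised the median of all genes by 0.12, and 57.3% of its calls were rises against 50.5% in the reported fit. It gave 2.41 for TXNIP, -0.46 for TXN, -0.47 for TXN2 and -0.0029 for MLXIP. The 5 CPM filter gave 2.39 for TXNIP, -0.48 for TXN and -0.028 for MLXIP, and no filter gave -0.62 for TXN. Leaving out a library moved TXN between -0.60 and -0.57. In the list of glucose transporters and hexokinases, which leaves out HK2, 0 genes fell by edgeR with the 5 CPM filter, since SLC2A10 was no longer fitted. In the list of TXN and TXNIP partners and inflammasome genes 1 gene fell with that filter. AMPK genes fell in 2 cases under upper quartile scaling and in 2 under the 5 CPM filter. The median of the list of TXN and TXNIP partners and inflammasome genes turned to -0.35 with no filter. That of genes with the paired E-box, in Other observations, turned to 0.092 with upper quartile scaling. MXD1 and DDIT4 passed as rises under upper quartile scaling (0.29 and 0.20) and under the 5 CPM filter, and MXD1 also without vehicle replicate 3 (0.26). In the 250 bases before the start alone, 6.34% of windows held the E-box, 0.424% the paired E-box, 32.0% CCAAT and 42.6% the GC box. Libraries with the same replicate number did not deviate together (correlations of -0.141 to -0.058, 0 of 6 libraries closest to their own number). A replicate block gave 6259 rises and 6150 falls over all genes against 6471 and 6355, 2.29 for TXNIP and 2.50 for ARRDC4.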

Other observations

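Genes other than TXNIP that carry the paired E-box in a promoter window were counted as a list chosen after the data were seen. Of 119 such genes tested, 48 (40.3%) rose and 55 (46.2%) fell with panobinostat by edgeR, with a median log2 difference of -0.03. Over all genes tested, 41.8% rose and 41.0% fell, so the share that rose was near the background. The share that fell was somewhat above it, a difference that was not tested. Rises numbered 38 to 55 and falls 40 to 58 over the alternatives, some of which tested other numbers of genes.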
